A study of Homo sapiens with 6 samples.

Results

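Interferon-stimulated genes are the transcripts that cells make in answer to type I or type II interferon, and their proteins carry out most of the antiviral action of these cytokines. A list of 47 such effector genes was followed from growing to senescent WI-38 fibroblasts, and 46 of the 47 were measured among 11963 genes of the array, each through its brightest probe set over all 6 samples. IFI30 was not analysed here. WI-38 cells are untransformed human fibroblasts that were first grown from fetal lung. The control group held 3 samples of wild type WI-38 cells labelled as growing fibroblasts, and the RASv12 group 3 samples of the same strain that overexpressed RASv12, a constitutively active RAS oncoprotein, and were labelled as senescent. Genes were introduced with retroviruses and cultures held at an oxygen level of 3%, per the labels' protocols. An empty vector for the controls is not mentioned, so infection and RASv12 cannot be told apart. Control samples are labelled Cy5 and RASv12 samples Cy3, although the probe sets are those of a single-colour Affymetrix array. How the dyes were used is unknown, and any effect of dye also cannot be told apart from RASv12. Separate cultures behind the replicates are not mentioned either, and the p-values thus describe the spread among these 6 samples, which may be technical.

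Binding of interferon to its receptor activates JAK kinases and STAT proteins, and a complex of STAT proteins with IRF9 binds the interferon-stimulated response element (ISRE) in target promoters. Type II interferon acts through STAT dimers on a different element, the gamma-activated site (GAS). The products fall into classes: enzymes and binding proteins that recognise or destroy viral RNA, the ubiquitin-like modifier ISG15 with its conjugation enzymes, IFITM proteins and tetherin in membranes, guanylate-binding proteins and the chemokines CXCL9 to CXCL11, and proteins of nuclear bodies. Senescent fibroblasts can switch on such genes with no virus present.

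Of the 46 measured genes, 25 rose in RASv12 cells, 3 fell and 18 did not pass (limma with Benjamini-Hochberg adjustment over all genes, adjusted p under 0.05). The rises were 54.3% of the list, against 13.8% of all genes called up, and the falls 6.52%, against 15.3% of all genes called down. Of the 25 rises, 21 were at least 2-fold in the fit (3.52% of all genes were called up by as much). The median change of the list was 0.70 on the log2(intensity + 16) scale, on which every log2 change below is given, and that of all genes was 0.020. All 3 RASv12 samples lay above all 3 control samples for 31 of the 46 genes, compared with 19.7% of all genes, and below them for 3, compared with 22.0% of all genes. Measured against the control mean, the list median was 1.06, 0.81 and 0.60 in RASv12 samples 1 to 3, and between -0.04 and 0.03 in the control samples. The list was put together with earlier results of these data known, so its counts are a description.

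Arrays correlated at 0.974 to 0.987 inside a group and at 0.911 to 0.928 across groups. Low bacterial controls reached an intensity of 27.98, which is used here as background, and 48.6% to 54.1% of an array's probe sets exceeded it. Of the 46 interferon-stimulated genes, 27 exceeded it in both groups by their mean, 12 were within background in control cells, 2 in RASv12 cells and 5 in both. All 9 fibroblast markers exceeded background on every array, but 7 of them fell (77.8%, against 15.3% of all genes called down). Their summed intensity ran from 21406 to 23675 in control and from 10897 to 13240.4 in RASv12 samples. DCN, the matrix proteoglycan decorin, changed by -3.28, and LUM, the related lumican, read 42.8, 50.4 and 31.5 in RASv12 samples, while VIM, the mesenchymal filament vimentin, had a change of -0.034 (adjusted p = 0.82). Of 9 leukocyte markers, 6, among them PTPRC, CD14 and LYZ, were at or under background on every array, and the summed intensity of the 9 ran from 55.5 to 118 in control and from 125 to 196 in RASv12 samples. LAPTM5, a lysosomal protein of leukocytes, rose from 17.8 ± 5.80 to 56.6 ± 9.87 (SD, n = 3). Summed endothelial markers (3 of 5 at or under background on all arrays) ran from 102 to 128 in control and from 47.2 to 99.8 in RASv12 samples, and summed epithelial markers (2 of 5) from 182 to 192 and from 148 to 188. The part of other cells in the results was not tested. In bulk RNA a change in the number of expressing cells and a change per cell cannot be told apart. HRAS, checked because it is the usual RAS gene of such models, rose from 215 ± 23.0 to 853 ± 123 in intensity (SD, n = 3). Hybridization control probe sets were lower on RASv12 arrays (18 of 18). Scaling to them shifted the median of all genes to 0.20 and turned the calls over all genes from 1647 up and 1835 down to 2822 up and 1050 down. On that scaling 30 of the 46 interferon-stimulated genes were called up and 2 down, with a list median of 1.0.

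The stretches of promoter below show the element through which these genes are usually switched on. The 250 bases before a transcript start of each gene, as given in a table of RefSeq promoters, were searched on both strands for the ISRE core (GAAA, 2 bases of any kind, GAAA), for the GAS core (TTC, 3 bases of any kind, GAA), which reads the same on both strands, and for the NF-kB motif. These sequences, of GRCh38.p14, matched 38 of the 47 listed genes. For 33 of the 37 measured genes with a sequence that start was the outermost start of the gene. It lay further inside the gene by 7.23 kb for DDX60, 4.84 kb for IFI27, 3.38 kb for ISG20 and 0.599 kb for XAF1. Where the table held several starts, as for 11 genes, the first was used. IFIT2, MX2, OAS2, OASL, USP18, TRIM22, IFITM2, GBP2 and PML had no entry. An ISRE match was found before 24 of the 38 genes (63.2%), against 3.07% of 27305 promoters of the same length. Capitals mark the ISRE matches in 6 promoters of genes that rose, printed 5′ to 3′ in the direction of the gene:
ISG15 (chr1:1013364-1013423, plus strand): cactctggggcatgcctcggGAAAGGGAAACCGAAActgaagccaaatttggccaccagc
IFIT1 (chr10:89392487-89392549, plus strand): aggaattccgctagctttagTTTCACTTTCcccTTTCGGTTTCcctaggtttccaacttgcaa
DDX60 (chr4:168318776-168318860, minus strand): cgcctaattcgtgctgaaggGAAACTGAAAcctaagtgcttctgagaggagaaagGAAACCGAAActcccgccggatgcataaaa
IFI27 (chr14:94110608-94110670, plus strand): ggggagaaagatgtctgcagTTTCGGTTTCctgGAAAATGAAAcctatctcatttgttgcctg
IFITM1 (chr11:313980-314039, plus strand): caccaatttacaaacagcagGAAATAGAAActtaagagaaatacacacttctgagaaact
CXCL10 (chr4:76023679-76023738, minus strand): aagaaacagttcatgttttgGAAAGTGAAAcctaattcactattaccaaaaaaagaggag

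ISG15, IFIT1, DDX60 and IFI27 each held 2 matches within the 250 bases, which overlap in ISG15, and IFITM1 and CXCL10 held 1 each. The next set shows promoters that hold the same letters and belong to genes that did not pass, or, for NMI, that fell:
IFIT5 (chr10:89414503-89414567, plus strand): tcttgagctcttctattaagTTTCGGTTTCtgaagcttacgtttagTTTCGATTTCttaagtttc
RTP4 (chr3:187368323-187368384, plus strand): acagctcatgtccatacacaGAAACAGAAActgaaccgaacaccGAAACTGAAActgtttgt
IFITM3 (chr11:320866-320932, minus strand): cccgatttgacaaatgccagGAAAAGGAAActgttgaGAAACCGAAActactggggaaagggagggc
BST2 (chr19:17405721-17405780, minus strand): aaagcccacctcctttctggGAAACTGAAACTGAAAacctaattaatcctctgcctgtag
GBP1 (chr1:89065296-89065355, minus strand): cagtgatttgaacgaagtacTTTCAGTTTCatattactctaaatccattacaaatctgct
NMI (chr2:151289792-151289851, minus strand): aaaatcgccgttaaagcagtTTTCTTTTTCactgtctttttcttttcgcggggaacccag

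Of the genes with a sequence, 14 of 21 that rose (66.7%) and 9 of 15 that did not pass (60%) held the motif, and the difference between these shares was not tested. Among the latter, RTP4, BST2, CXCL9 and IFI44L lay within background in both groups by their means, so a change in them could have been missed. IFIT5, RTP4, IFITM3 and BST2 each held 2 matches and did not pass. GAS matches were found before 7 of the 38 genes (18.4%, against 6.78% of all promoters), among them OAS1, CXCL11 and IFITM1. NF-kB matches stood before 9 of 38 (23.7%, against 9.57% of all promoters and 11.6% of those of genes on the array), and CXCL10 had 2 matches. Listed genes that rose held an NF-kB match in 4 of 21 (19.0%), beside 13.0% of all genes called up. Those that did not pass held one in 4 of 15 (26.7%), and this difference was not tested. A match is a run of letters in the reference genome and no sign that a factor was bound.

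**Figure D1:**
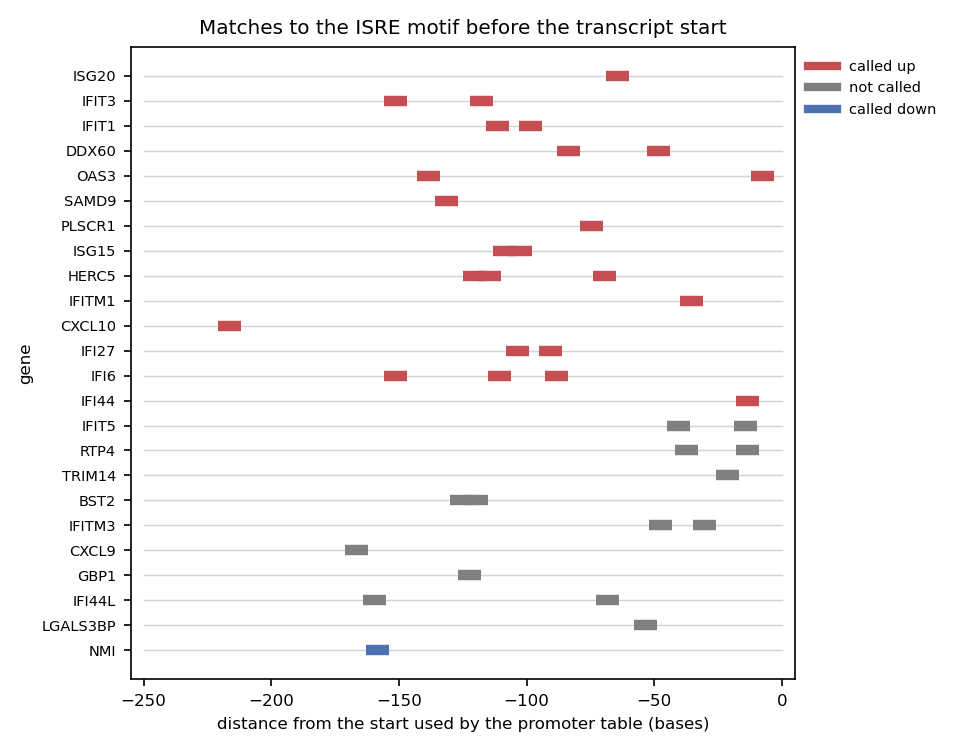
Positions of matches to the ISRE core in the 250 bases before the transcript start of the RefSeq promoter table, in bases (x axis; for DDX60, IFI27 and ISG20 this start lies inside the gene), for the 24 listed genes with a match (y axis). Red bars are genes called up in RASv12 cells, grey bars genes not called and the blue bar NMI, which was called down; genes with 2 matches occur among both the called and the uncalled.

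The antiviral effectors were the class with the most rises, 14 of 18 (77.8%, against 13.8% of all genes called up). None of them fell, against 15.3% of all genes called down, and 4 did not pass. Their median change was 1.18, or 1.15 with dim genes at their bound. OASL, an oligoadenylate synthetase family member that carries ubiquitin-like domains, had intensities of 34.2, 32.5 and 29.1 in control samples 1 to 3 and of 448, 409 and 367 in RASv12 samples 1 to 3. All RASv12 values stood far above all control values, and the rise was 3.13 ± 0.097 (SE) with adjusted p = 6.1e-06. MX1, a dynamin-like GTPase that traps viral nucleoproteins, read 30.1, 43.1 and 28.0 in control and 353, 297 and 271 in RASv12 samples. The groups did not overlap, and MX1 rose by 2.72 ± 0.15 with adjusted p = 3.8e-05. RSAD2 encodes viperin, an enzyme whose product ends viral RNA synthesis. The RSAD2 probe set was at 3.37, 1.72 and 2.94 in control samples, all within background, and at 67.0, 75.0 and 88.6 in RASv12 samples. RSAD2 exceeded its control level at least 2.73-fold (adjusted p = 1.5e-05). ISG20, an exonuclease that degrades viral RNA, went from 13.7, 11.9 and 18.0, again within background, to 105, 112 and 111. ISG20 was at least 3.90-fold higher (adjusted p = 3.3e-05). Here and below, "at least" sets the brighter group against background wherever the dimmer group's mean, or all its samples, lay there.

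All 4 genes of the OAS family, OASL among them, rose. The enzymes OAS1, OAS2 and OAS3 make short oligoadenylates on double-stranded RNA, and these switch on a ribonuclease. OAS3 read 52.1, 24.8 and 35.1 in control and 95.1, 92.6 and 107 in RASv12 samples, a rise of 1.15 ± 0.18 (adjusted p = 0.0034). OAS1 was at least 1.94-fold higher and OAS2 at least 2.18-fold, since both lay within background in control cells. For OAS1, OAS2 and OASL each of 2 probe sets was called up, against 11.3% of all probe sets. The dimmer OAS2 probe set lay within background in both groups. OAS1, OAS3 and OAS2 lie side by side on chromosome 12.

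The IFIT genes, whose proteins bind viral RNA ends that lack host cap marks, split. IFIT1 read 94.4, 70.6 and 75.9 in control samples and 313, 279 and 224 in RASv12 samples. IFIT2 went from 32.2, 31.8 and 40.6 to 100.1, 92.1 and 101, and IFIT3 from 87.0, 53.4 and 63.4 to 225, 228 and 311. In each of the 3 the groups stood apart, with rises of 1.60 ± 0.15, 1.21 ± 0.11 and 1.72 ± 0.19 (adjusted p = 3.5e-04, 3.0e-04 and 8.9e-04). IFIT5 read 135, 77.7 and 77.6 in control and 81.8, 89.8 and 93 in RASv12 samples, so its groups overlapped. Its change was -0.028 (95% confidence interval -0.51 to 0.46, adjusted p = 0.94), and its second probe set did not pass either. Within each array the log2 difference of IFIT1 over IFIT5 ran from -0.48 to -0.03 in control samples and from 1.17 to 1.65 in RASv12 samples. That shift of 1.62 had an exact two-sided permutation p = 0.1, the smallest that 3 against 3 samples allow, and p = 0.1 after adjustment over the 3 such pairs examined, which were picked after their values were seen.

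By their brightest probe sets, EIF2AK2 and ADAR, whose proteins also act on double-stranded RNA, were well above background in both groups. EIF2AK2 encodes PKR, a kinase that stops translation when it meets double-stranded RNA. Its brightest probe set read 182, 178 and 183 in control and 181, 178 and 162 in RASv12 samples, a change of -0.051 with adjusted p = 0.73. Its other probe set, of the kind whose probes may also match further transcripts, read 45.2, 40.7 and 45.5 in control and 127, 132 and 112 in RASv12 samples. That probe set was called up at 1.26 ± 0.10 (adjusted p = 2.8e-04 over all probe sets, of which 11.3% were called up), and the mean of both was called up at 0.60 (adjusted p = 0.0028). Whether EIF2AK2 passed thus depended on the probe set. The log2 difference between them shifted by 1.31 within arrays (exact two-sided permutation p = 0.1, and 0.1 adjusted over the 3 pairs). ADAR, the deaminase that edits double-stranded RNA, was at 598, 582 and 537 against 658, 635 and 664. Its groups did not overlap, yet its change of 0.16 did not pass (adjusted p = 0.27), and it was called up, at 0.52, once arrays were scaled to the hybridization controls.

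The remaining antiviral genes rose less or lay near background. DDX60, a helicase-like cofactor of RNA sensing, was at least 2.44-fold higher (adjusted p = 0.0028). PLSCR1, a phospholipid scramblase with antiviral action, read 127, 114 and 114 in control and 192, 201 and 201 in RASv12 samples, a rise of 0.70 ± 0.093 (adjusted p = 0.0019). SAMD9, a restriction factor for poxviruses, was at least 1.78-fold higher (adjusted p = 0.037). MX2, the MX1 neighbour that restricts retroviruses, was at least 1.32-fold higher (adjusted p = 0.021). These last calls were weak: without control replicate 1, 2 or 3 or RASv12 replicate 2 neither passed, SAMD9 also failed without RASv12 replicate 1 and MX2 without RASv12 replicate 3, and over all alternatives that ended them the adjusted p ran from 0.052 to 0.11 for SAMD9 and from 0.056 to 0.072 for MX2. RTP4, a chaperone of membrane receptors that is also interferon-induced, was within background on all 6 arrays. Scaled to the hybridization controls, the small negative changes of IFIT5, EIF2AK2 and RTP4 turned to 0.21, 0.25 and 0.04, none of them called.

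**Figure D2:**
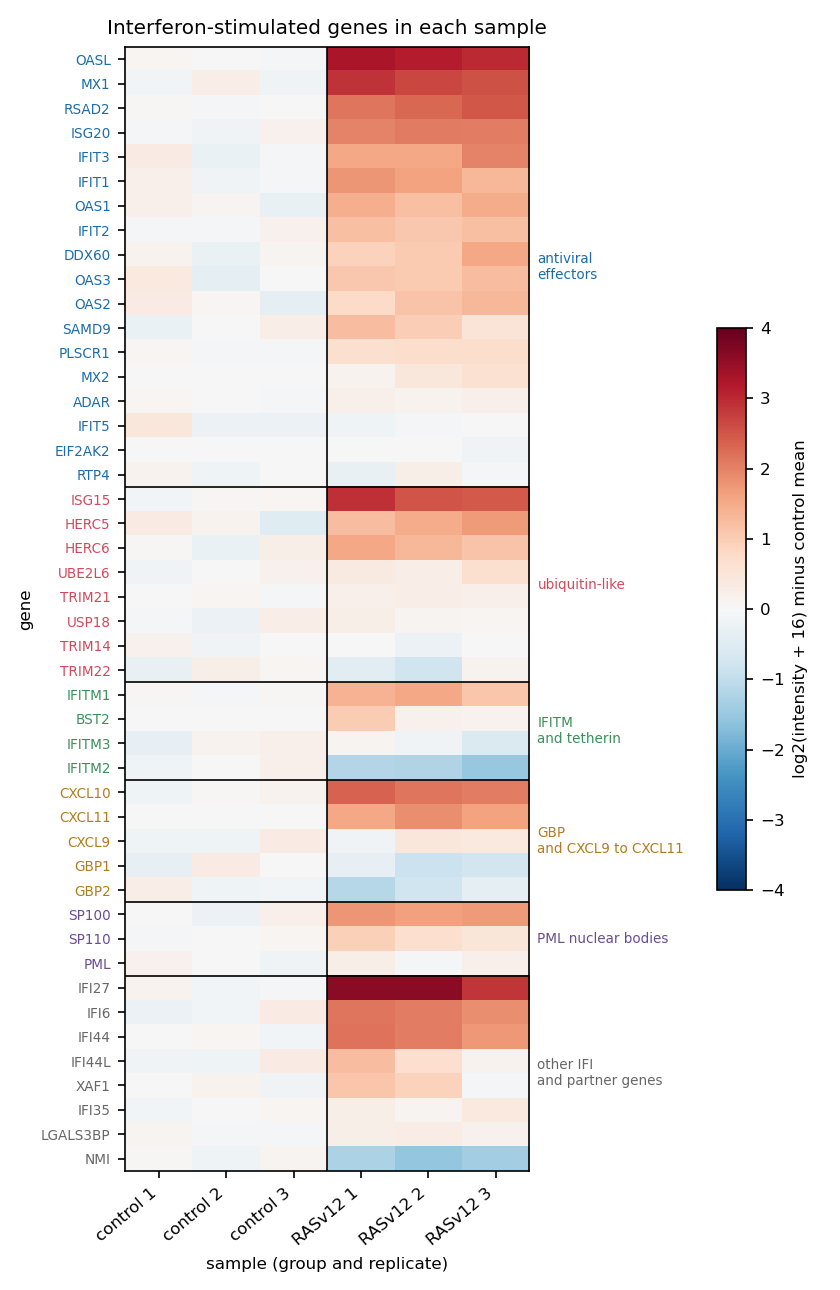
Heat map of the 46 measured interferon-stimulated genes (rows, grouped by class and ordered by change) in the 6 samples (columns). Colour is log2(deposited intensity + 16) minus the control mean, with red for higher; OASL, MX1, ISG15 and IFI27 are dark red in all 3 RASv12 samples, while IFITM2 and NMI are blue in all 3.

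The ubiquitin-like class held both strong rises and genes that stayed near control values: 3 of 8 rose, none fell and 5 did not pass. Over all genes, 13.8% were called up and 15.3% down. The class median was 0.34. ISG15 is a ubiquitin-like protein that is joined to other proteins and is also secreted. It read 369.6, 409 and 417 in control samples and 3121, 2333 and 2269.9 in RASv12 samples. The groups lay far apart, with a rise of 2.60 ± 0.14 and adjusted p = 3.2e-05. HERC5, the ligase that attaches ISG15 to new proteins, read 24.3, 19.7 and 7.20 in control, within background, and 59.6, 74.0 and 88.9 in RASv12 samples, at least 2.62-fold higher (adjusted p = 0.0025). HERC6, its neighbour and a related ligase, read 24.6, 16.3 and 30.1 and then 99.0, 81.6 and 70.9, at least 2.90-fold higher (adjusted p = 0.0014). Neither ligase had overlapping groups.

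UBE2L6, the conjugating enzyme that hands ISG15 to HERC5, went from 226, 248 and 286 to 331, 304 and 406. All RASv12 values were above all control values, but the change of 0.42 ± 0.15 did not pass (adjusted p = 0.080). It passed with median centring at 0.45, with scaling to the hybridization controls at 0.75 and without the dimmest 50% of probe sets at 0.42. USP18 removes ISG15 from proteins and dampens signalling at the interferon receptor. Its values of 45.9, 38.2 and 61.0 in control and 59.2, 52.3 and 51.1 in RASv12 samples overlapped. Its change was 0.19 with a 95% confidence interval from -0.17 to 0.56 (adjusted p = 0.41). None of the 3 TRIM genes passed. TRIM21, an antibody receptor in the cytosol and a ubiquitin ligase, read 101, 109 and 98.2 in control and 120.2, 127 and 121 in RASv12 samples. Its groups did not overlap, but the change of 0.26 missed the threshold (adjusted p = 0.066), which it passed at 0.52 with arrays scaled to the hybridization controls and at 0.19 with a pseudocount of 64. TRIM14, an adaptor of antiviral signalling, had a change of -0.024 (adjusted p = 0.91), which turned to 0.21 under that scaling without a call. Of its 3 dimmer probe sets 1 was called up at 0.49, against 11.3% of all probe sets. TRIM22, a ubiquitin ligase with antiviral action, had a change of -0.31 (adjusted p = 0.41).

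IFITM proteins sit in cell and endosome membranes and hinder the fusion of enveloped viruses. Their 3 genes are direct neighbours on chromosome 11, and they did not move together. IFITM1 read 172, 158 and 171 in control samples and 465, 520.3 and 381 in RASv12 samples, and rose by 1.34 ± 0.12 (adjusted p = 3.7e-04). IFITM2 read 985, 1096 and 1267 in control and 481, 477 and 379 in RASv12 samples, and changed by -1.32 ± 0.13 (adjusted p = 4.7e-04). For both genes the groups stood apart, with RASv12 samples above the controls for IFITM1 and beneath them for IFITM2. IFITM3, which acts in endosomes, read 1192, 1627 and 1705 against 1603, 1342 and 1003. Its groups overlapped, and its change of -0.24 (95% confidence interval -0.71 to 0.23) did not pass with adjusted p = 0.43. Within arrays the log2 difference of IFITM1 over IFITM2 ran from -2.76 to -2.44 in control and from -0.05 to 0.12 in RASv12 samples. The shift was 2.67 with an exact two-sided permutation p = 0.1, the smallest possible, and 0.1 adjusted over the 3 pairs. With scaling to the hybridization controls IFITM2 remained called down at -0.96, and IFITM3 turned to 0.13 without a call. The IFITM sequences are near copies of each other, and the probe sets of IFITM2 and IFITM3 are of a kind whose probes may match other transcripts, so the split between these genes is uncertain. BST2, or tetherin, which holds budding virions on the cell surface, was within background on all 6 arrays. BST2 read 2.09, 1.58 and 1.99 in control and 19.8, 4.25 and 3.70 in RASv12 samples. Its groups did not overlap, but at these levels no fold is given (adjusted p = 0.27).

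Guanylate-binding proteins and CXCL9 to CXCL11 are genes for which type II interferon is the usual inducer, and 2 of these 5 rose, 1 fell and 2 did not pass, beside 13.8% of all genes called up and 15.3% called down. CXCL10, a chemokine that draws T cells and NK cells through the receptor CXCR3, read 21.3, 28.0 and 30.4 in control and 202, 171 and 159.7 in RASv12 samples. It was at least 6.15-fold higher (adjusted p = 6.7e-05). CXCL11, another ligand of that receptor, read 4.06, 3.61 and 4.07 and then 42.3, 56.0 and 44.4, at least 1.69-fold above background (adjusted p = 1.1e-04). Both CXCL11 probe sets were called up, against 11.3% of all probe sets. CXCL9, the third ligand, lay within background on 5 of 6 arrays, with 13.2, 13.6 and 25.8 in control and 14.2, 29.6 and 27 in RASv12 samples. Its change of 0.24 did not pass (adjusted p = 0.42).

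The GBP genes encode GTPases that coat intracellular bacteria and vacuoles. GBP1 read 56.1, 98.7 and 76.6 in control and 57.2, 34.9 and 38.9 in RASv12 samples. This probe set is of the kind whose probes may also match further transcripts. The groups overlapped through RASv12 sample 1, and the change of -0.60 ± 0.23 did not pass (adjusted p = 0.10), though it did under 3 alternatives: without RASv12 replicate 1 (-0.79, adjusted p = 0.036), with the mean of its probe sets (-0.62, adjusted p = 0.015) and without the dimmest 50% of probe sets (-0.60, adjusted p = 0.045). Its dimmer probe set was called down at -0.65 (adjusted p = 0.025, with 13.0% of probe sets called down). GBP2, which lies beside it on chromosome 1, read 40, 25.1 and 26.7 in control and 5.09, 10.4 and 19.9 in RASv12 samples. Its RASv12 values were all lower, but all 3 of them and those of control samples 2 and 3 were within background. GBP2 was at least 1.07-fold lower with a fitted adjusted p = 0.017. That call ended without control replicate 1 or RASv12 replicate 2, with scaling to the hybridization controls and with the replicate number as a block (adjusted p from 0.050 to 0.11).

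**Figure D3:**
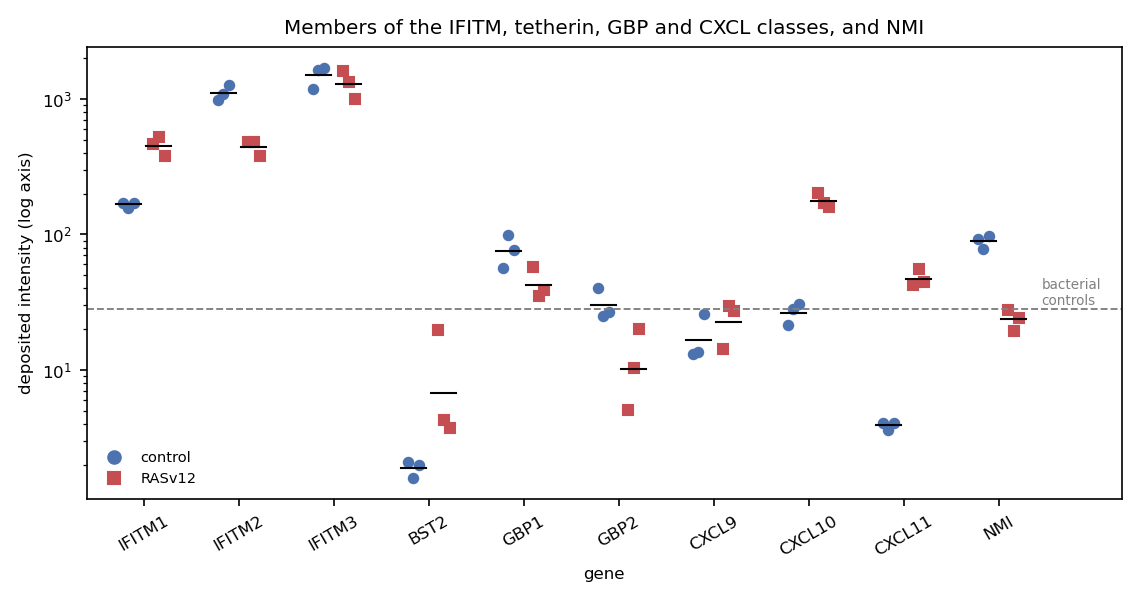
Deposited intensity (log axis) of the 9 genes of the IFITM and tetherin and the GBP and CXCL9 to CXCL11 classes and of NMI, for 3 control samples (blue circles) and 3 RASv12 samples (red squares), with black bars at the geometric means. The dashed line is the brightest low bacterial control (27.98); CXCL10, CXCL11, IFITM1 and, within background, BST2 are higher in all RASv12 samples, and IFITM2, GBP2 and NMI lower.

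PML nuclear bodies are protein clusters that take part in antiviral defence and in senescence. SP100, a main constituent beside PML, read 121, 100.3 and 139.6 in control and 449, 409 and 424 in RASv12 samples. The groups stood well apart, with a rise of 1.71 ± 0.13 (adjusted p = 1.6e-04). Of the 5 SP100 probe sets 3 were called up, against 11.3% of all probe sets. SP110, a relative of SP100, read 129.9, 142 and 147 in control and 286, 231 and 200.4 in RASv12 samples, and rose by 0.70 ± 0.13 (adjusted p = 0.0073). All 4 of its probe sets were called up, by 0.70 to 1.22, against the same 11.3%. The brightest of them is of the kind whose probes may also match further transcripts. PML itself read 72.2, 60.5 and 53.0 against 75.1, 58.7 and 73.9, and its change of 0.21 (95% confidence interval -0.10 to 0.52) did not pass with adjusted p = 0.30. Of its 8 probe sets none was called up and 1 dim probe set was called down, against 13.0% of all probe sets called down.

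Of the 8 other genes measured, 3 rose, 1 fell and 4 did not pass, beside 13.8% of all genes called up and 15.3% called down. IFI27, a small mitochondrial membrane protein often used to score interferon responses, read 28.9, 22.1 and 23.4 in control and 485, 484 and 279 in RASv12 samples. It was at least 14.3-fold higher (adjusted p = 5.9e-05). IFI6, a relative of IFI27 that hinders viral replication, read 40.5, 45.5 and 68.1 and then 274, 257 and 225, a rise of 2.03 ± 0.16 (adjusted p = 2.1e-04). IFI44, an interferon-induced cytosolic protein, read 47.2, 49.2 and 41.5 and then 264, 237 and 192, a rise of 2.00 ± 0.13 (adjusted p = 6.7e-05). In all 3 every RASv12 value exceeded every control value. The dimmer probe set of IFI44 lay within background in both groups and was not called, at 0.35 (adjusted p = 0.28 over all probe sets). The mean of both IFI44 probe sets was called up at 1.18. IFI44L, the neighbour and relative of IFI44, read 31.2 in RASv12 sample 1, 15.9 in sample 2 and 5.85 in sample 3, against 1.92, 1.76 and 8.79 in control samples. XAF1, an antagonist of the apoptosis inhibitor XIAP, had a like spread, with 25, 20 and 2.04 against 2.68, 5.13 and 1.39. Neither passed (adjusted p = 0.16 and 0.19), both did without RASv12 replicate 3 (1.0 with adjusted p = 0.041, and 1.05 with adjusted p = 0.0066), and their means lay within background in both groups.

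NMI, a partner of STAT proteins that binds IFI35, was lower in RASv12 cells. It read 92.1, 77.5 and 97.9 in control samples and 27.6, 19.5 and 24.3 in RASv12 samples, all within background. NMI was at least 3.17-fold lower (adjusted p = 7.9e-04), and its call held with scaling to the hybridization controls (-1.16). IFI35 itself read 58.9, 66.1 and 69.4 against 79.1, 71.9 and 90.4, and did not pass at 0.32 (adjusted p = 0.061). LGALS3BP, a secreted glycoprotein that binds galectins, had a change of 0.23 (adjusted p = 0.12). Both were called up with arrays scaled to the hybridization controls (0.53 and 0.56) and with a pseudocount of 64 (0.21 and 0.19).

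**Figure D4:**
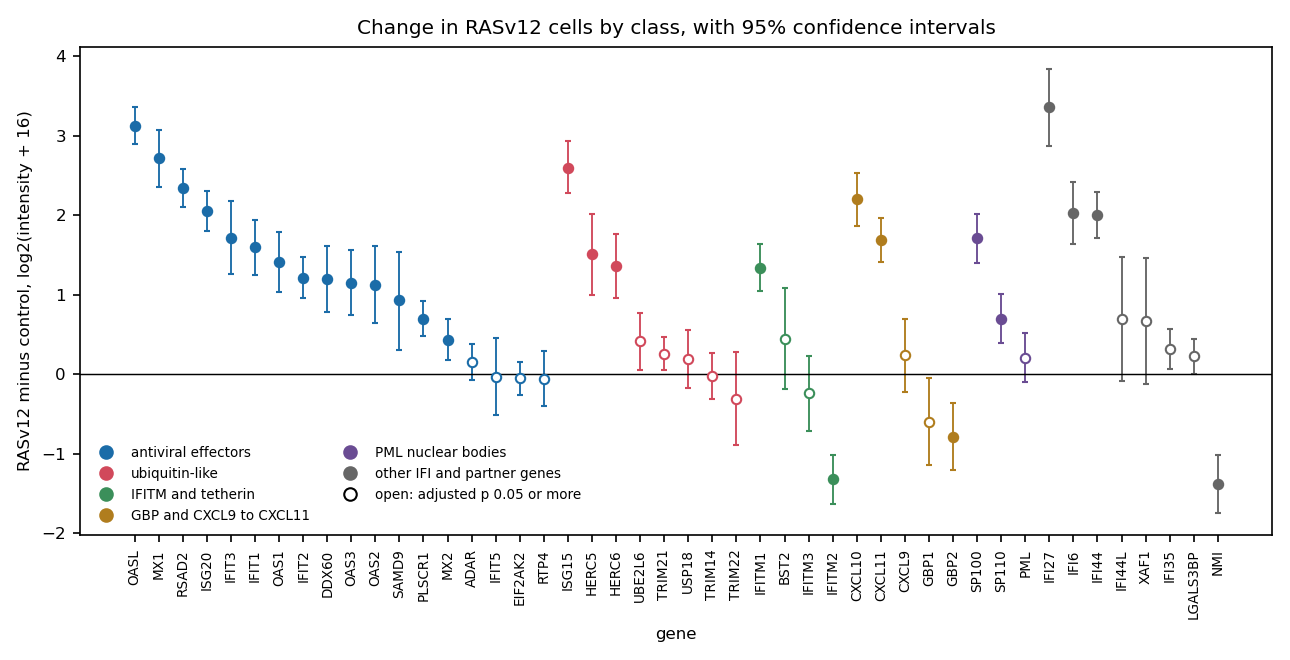
Change in RASv12 cells on the log2(intensity + 16) scale with 95% confidence intervals (y axis, unadjusted, n = 3 samples per group) for the 46 measured genes (x axis), coloured by class. Filled points had an adjusted p under 0.05. Of the 18 antiviral effectors, 14 are filled and above 0, while 13.8% of all genes were called up. The filled points below 0 are IFITM2, GBP2 and NMI.

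Many of these genes lie beside each other in the genome (order of protein-coding genes in GRCh38.p14), and neighbours were set side by side. OAS1, OAS3 and OAS2, as well as HERC6 and HERC5, rose together. So did SP110 and SP100 on chromosome 2, which have 2 other genes between them. On chromosome 1 GBP1 and GBP2 changed by -0.60 and -0.79, and only GBP2 was called. IFI44L and IFI44, also on chromosome 1, changed by 0.70 and 2.00, and only IFI44 was called. In the IFIT run on chromosome 10, in the order IFIT2, IFIT3, IFIT1 and IFIT5 with 1 other gene between IFIT3 and IFIT1, the first 3 rose and the last did not pass. In the chemokine run on chromosome 4 CXCL10 and CXCL11 rose and CXCL9 did not pass. On chromosome 11 IFITM1 rose between IFITM2, which fell, and IFITM3. MX1 on chromosome 21 changed by 2.72 and MX2 by 0.43, a value that the pseudocount compresses because MX2 is dim.

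**Figure D5:**
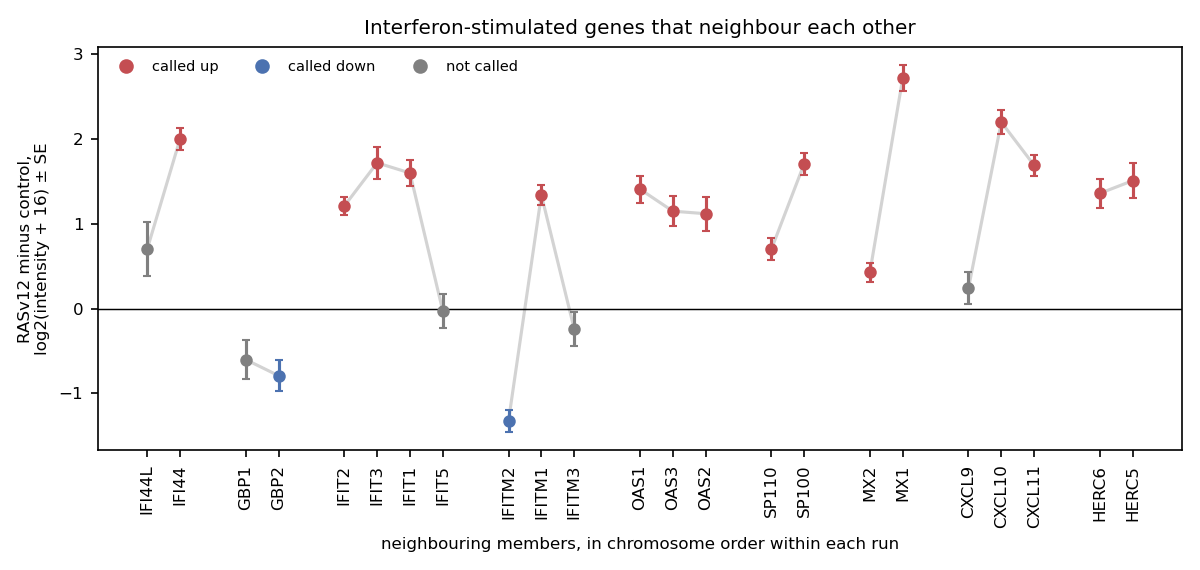
Change in RASv12 cells (log2(intensity + 16) scale, ± SE, n = 3 samples per group) of interferon-stimulated genes that neighbour each other, in chromosome order within each run and joined by grey lines. Red points were called up, blue points down and grey points not called. The OAS, HERC, SP, MX, IFI44 and CXCL runs lie wholly above 0 and the GBP run below. The IFIT and IFITM runs have points on both sides.

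Of 43 further genes of interferon signalling and nucleic acid sensing, 36 were measured; 12 (33.3%, against 13.8% of all genes) were called up and 4 (11.1%, against 15.3%) down, with a median of 0.099. None of the 5 interferon genes measured (IFNA1, IFNA2, IFNB1, IFNG and IFNW1) rose above background in either group. IFNB1, the interferon that fibroblasts make, had mean intensities of 1.71 ± 0.302 in control and 1.95 ± 0.467 in RASv12 cells (SD, n = 3). IFNG was called at adjusted p = 0.044 from values within background in both groups, and no fold is given. Among receptors, IFNGR2, a chain of the type II receptor, rose by 0.62 ± 0.091 (adjusted p = 0.0029), while IFNAR2, a chain of the type I receptor, had a change of 0.081. None of the kinases JAK1, JAK2 and TYK2 passed. IRF7, the factor that amplifies interferon production, rose by 0.60 ± 0.095 (adjusted p = 0.0040). IRF3, IRF1 and IRF9 were called up at 0.61, 0.45 and 0.31, and STAT3 was called down at -0.67. SOCS1, an inhibitor of JAK kinases, was at least 1.66-fold lower (adjusted p = 0.0046), and SOCS3, another, was called up at 0.59. Of the sensors, RIGI, which detects viral RNA ends, rose by 1.09 ± 0.18 (adjusted p = 0.0051), and its adaptor MAVS was called down at -0.61. The calls of STAT3 and MAVS ended on scaling to the hybridization controls, at -0.33 and -0.40. That of STAT3 also ended with the mean of its probe sets, at -0.29 (adjusted p = 0.26). Of the 16 calls, 6 held under every alternative that was run: IFNGR2, IRF7, SOCS1, RIGI, IFIH1 and AIM2. Of these, IFIH1 lay within background in both groups. AIM2 was within background on 5 of 6 arrays, with 20.4, 21.0 and 48.5 in RASv12 samples.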

How the data were processed

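Expression was measured on 6 arrays, 1 per sample, and the authors deposited a table of linear intensity per probe set. The submitters' processing notes name MAS5, a summary algorithm for Affymetrix probe sets, while the sources used here give no version, scaling target or genome build. The mean after trimming 2% from each end was 100.0 on every array. Of 22283 probe sets, 68 controls were left out, and 19065 had 1 gene symbol, updated through gene identifiers to RefSeq (GRCh38.p14). Another 1043 had several symbols and 2107 had none, and these were not named. Intensities were transformed as log2(value + 16) and quantile normalized (array medians before this step ran from 5.40 to 5.63). All 22215 probe sets were fitted with limma 3.58.1 (lmFit, eBayes) in R 4.3.3, and p-values of each gene's brightest probe set were adjusted by Benjamini-Hochberg over 11963 genes, with a threshold of 0.05. No dim probe sets were removed. The procedure was tested on simulated data. Background is the brightest of 27 low bacterial control probe sets (intensity 27.98).

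The genes and lists were chosen with earlier results of these data known. In each class up to 5 genes with the largest moderated t, all falls and all IFITM, tetherin, GBP and CXCL genes are given in full, and other genes and the gene pairs were added after their values were seen. Normalization, pseudocount, dim filter, probe set choice, variance model, replicate block and leaving out each sample were varied. The number of arrays limits the precision.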

Additional observations from a re-analysis of the deposited data

How the results depend on the processing

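Over 16 alternatives, 25 of the 28 called genes kept their call and direction wherever they were tested, 23 of them rises; SAMD9, MX2 and GBP2 lost theirs under 8, 7 and 4 alternatives. Another 9 genes were called under at least 1 alternative. The list median of 0.70 moved to 1.0 with scaling to the hybridization controls, 1.41 with a pseudocount of 1 and 1.14 without the dimmest 50% of probe sets, and ran from 0.65 to 1.02 with 1 sample left out, the highest without RASv12 replicate 3. With 1 sample left out, between 23 and 26 list genes were called up and between 2 and 4 down. Genes called in all were 2822 up and 1050 down with scaling to the hybridization controls. EIF2AK2 turned from -0.051 to 0.60 with the mean of its probe sets. The main fit did not pair samples by their shared replicate numbers. Deviations from group means correlated at -0.226, -0.0282 and -0.07 for same-numbered samples and at -0.116 to 0.165 for differently numbered ones. With 3 samples per group such deviations are tied to each other, so these values cannot decide whether samples were paired. With the replicate block, 24 list genes were called up and 2 down, and 1165 and 1436 of all genes. Genes within background have changes that depend on the pseudocount.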
